A study of Mus musculus and synthetic construct with 15 samples.

Results

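Reporter activity was examined for the 7 regions, of 3820 in the whole assay, that belong to Esrrb, Esrrg and Ppargc1b. A region was assigned to a locus by the distance from its midpoint to protein-coding gene bodies of RefSeq on GRCm38, when the closest was 1 of these 3 genes and lay no more than 100 kb away. Esrrb held 2 regions, Esrrg held 2 and Ppargc1b held 3, and each of the 7 midpoints lay inside the gene body. In this reporter assay, candidate regions of 400 bp were cloned into an AAV9 library, and the RNA made from each region in the heart was counted and set against the region's amount in the viral DNA. The pool was given to wild-type pups on postnatal day 0, and hearts were taken on postnatal day 7, which gave 5 atrial and 5 ventricular RNA libraries, both labelled as cardiomyocytes, while 5 libraries of AAV9 DNA serve both chambers. The labels name no mouse strain and do not say whether the libraries of a chamber came from separate animals, so the spread behind each p-value is that between libraries and could be technical. The counts are of transcripts of the cloned regions and not of the cells' own genes, so the labelled cell type could not be checked against its markers.

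The estrogen-related receptors are orphan nuclear receptors that bind DNA without a known natural hormone. Together with coactivators of the PGC-1 family they switch on genes of mitochondrial respiration and fatty acid oxidation, and in the heart they take part in the shift to oxidative metabolism after birth. Esrrg encodes ERR gamma, which is abundant in heart muscle. Esrrb encodes ERR beta, known for its part in placenta, inner ear and the self-renewal of embryonic stem cells. Ppargc1b encodes the coactivator PGC-1 beta, and its gene body also hosts Mir378a, a microRNA gene tied to energy metabolism. A reporter value describes the cloned region in its viral setting, not the gene it lies in, and p300, which appears in the regions' tags, is a histone acetyltransferase found at active enhancers.

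Total counts ran from 877773 to 3781726 per RNA library and from 2312820 to 2958271 per DNA library. Levels are given in CPM, counts scaled to a common library size. A count of 0 allows a level of up to 3.42 CPM at the lowest depth or 0.793 CPM at the highest. These limits cover counting error only and are scaled by total counts, without TMM factors. Replicate 1 of both chambers stood apart: regions without any DNA count held 0.0197% of the counts in atrial replicate 1 and 0.0162% in ventricular replicate 1, against 3.34% to 4.20% in replicates 2 to 5. Whether the DNA libraries match the pool behind replicates 2 to 5 was not tested. CPM values below were scaled with TMM factors over all 15 libraries. Fold changes, standard errors and adjusted p-values come from edgeR's quasi-likelihood test over the 2601 regions whose DNA libraries averaged 10 counts or more, with Benjamini-Hochberg adjustment, and a region was called at an adjusted p under 0.05. Of the 7 regions, 6 met this minimum.

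The 2 regions of Esrrb lay 113 kb apart on chromosome 12 (mm10). The region tagged ESC-Neg, at chr12:86385939-86386338, was 25.02 kb downstream of the first listed start site. The region tagged vMTF+p300, at chr12:86498831-86499230, was 138 kb downstream of that site and 22.6 kb short of the far end of the gene body. In Esrrg, on chromosome 1, the vMTF+p300 region at chr1:187836809-187837208 lay 228 kb downstream of the first start site and 161 kb upstream of the nearest one. The aMTF-p300 region at chr1:187938728-187939127 was 102 kb farther on and 58.9 kb upstream of the same start site. The 3 Ppargc1b regions on chromosome 18 were closer together, with the aMTF-p300 region at chr18:61321978-61322377, the vMTF+p300 region 24.4 kb higher at chr18:61346369-61346768 and the p300AVB region another 9.0 kb higher at chr18:61355346-61355745. The last of these was 42.3 kb from Mir378a. None of the 7 overlapped a second RefSeq gene or a listed RefSeq promoter window, but that table lists no start site for Ppargc1b, so its 3 regions were not compared with a promoter of their own gene. Whether they are exonic or intronic was not determined, as the annotation used gives gene bodies only. The tags are used as the files give them. The authors' group column placed the ESC-Neg region under Neg, the p300AVB region under TF1-2 and the other 5 under MTF or P300.

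**Figure D1:**
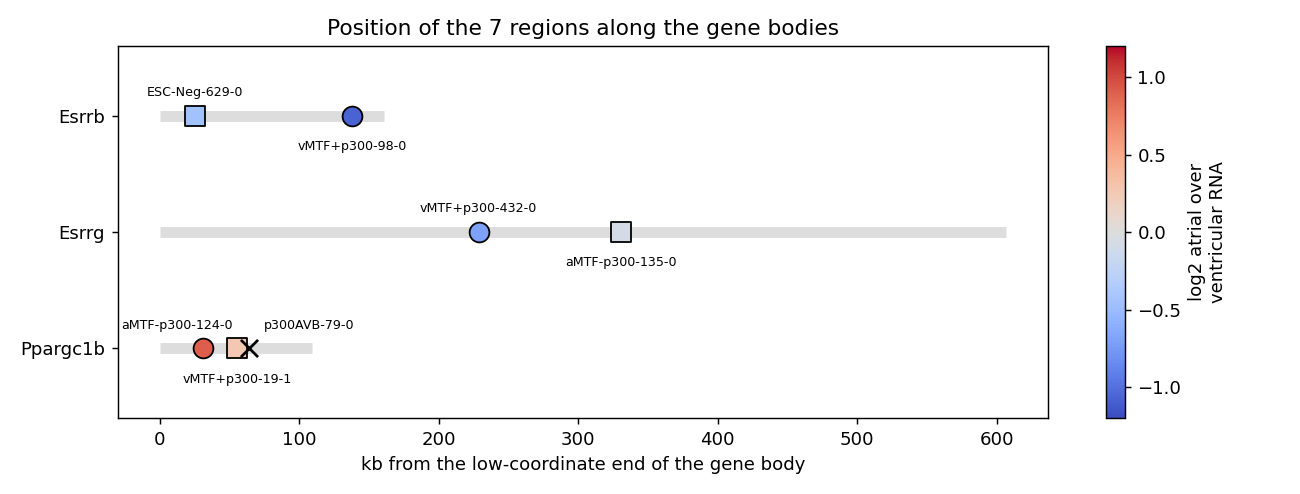
Position of the 7 regions along the 3 gene bodies (grey bars, 0 at the low-coordinate end, in kb), coloured by the log2 difference of atrial over ventricular RNA. Circles are regions called between chambers, squares are tested regions not called, and the cross is the p300AVB region with too few DNA counts to be tested; the called regions of Esrrb and Esrrg are on the ventricular side and that of Ppargc1b on the atrial side.

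The vMTF+p300 region of Esrrb had the highest ratio of RNA to DNA among the 6 tested regions in both chambers, and its RNA was higher in ventricle. It had 474, 621, 672, 718 and 720 CPM in atrial RNA, 1304, 1306, 1362, 1395 and 1352 CPM in ventricular RNA, and 101, 108, 73.5, 123.8 and 104 CPM in DNA (replicates 1 to 5). The 3 groups did not overlap, and the ventricular libraries were the tightest, with a coefficient of variation of 2.90%, against 15.9% in atrium, where replicate 1 was the lowest. RNA exceeded DNA 5.95-fold in atrium (log2 2.57 ± 0.16 SE, adjusted p = 3.72e-09) and 13.0-fold in ventricle (log2 3.70 ± 0.12, adjusted p = 1.73e-13). The chambers differed directly, with a log2 atrial over ventricular RNA of -1.07 ± 0.10 and an adjusted p of 8.93e-07, which is 2.11-fold more RNA in ventricle. Reporter RNA was measured in bulk and scaled to each library, so a level is relative to the other regions, and a smaller share of a cell type in which a region is active and less of its RNA per cell cannot be told apart. Within pairs of the same replicate number the difference was -1.46 in replicate 1 and between -1.07 and -0.91 in replicates 2 to 5. RNA was lower in atrium in 5 of 5 pairs, which holds for any pairing because the libraries of the chambers did not overlap.

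The other Esrrb region, tagged ESC-Neg, behaved in the opposite way against DNA. It held 42.2 to 82.4 CPM in atrial RNA (median 56.8) and 67.1 to 95.9 CPM in ventricular RNA (median 81.2), against 145 to 203 CPM in DNA (median 155). Neither chamber's libraries overlapped with DNA, whereas those of the chambers overlapped with each other. RNA was 2.93-fold lower than DNA in atrium (log2 -1.55 ± 0.19, adjusted p = 4.83e-06) and 2.06-fold lower in ventricle (log2 -1.04 ± 0.14, adjusted p = 3.92e-06). The ventricular value moved to -0.60 and stayed called when only regions with 100 or more DNA counts were fitted. Between chambers the log2 difference was -0.46 ± 0.23 with an adjusted p of 0.152 and a 95% interval of -0.94 to 0.03. Within a library the ratio of the 2 Esrrb regions does not depend on scaling: the vMTF+p300 region had 7.53 to 17.0 times the counts of the ESC-Neg region in atrial RNA and 13.6 to 20.8 times in ventricular RNA, against 0.363 to 0.818 times in DNA. The ranges of the chambers overlapped, and both lay above that of DNA.

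In Esrrg the vMTF+p300 region was also above DNA in both chambers and higher in ventricle. Its atrial RNA stood at 138, 126, 140, 164 and 131 CPM and its ventricular RNA at 255, 240, 231, 201 and 201 CPM, against 39.9, 43.7, 35.1, 36.6 and 36.7 CPM in DNA. All atrial libraries were below all ventricular ones, and both chambers were above DNA. The fold over DNA was 3.47 in atrium (log2 1.79 ± 0.16, adjusted p = 1.44e-07) and 5.83 in ventricle (log2 2.54 ± 0.13, adjusted p = 2.81e-11). The atrial over ventricular difference was -0.70 ± 0.14 on the log2 scale (adjusted p = 0.00137), 1.62-fold more RNA in ventricle. Single pairs lay between -0.93 and -0.29. That 5 of 5 were lower in atrium follows from the lack of overlap.

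The aMTF-p300 region of Esrrg was weak and passed no test. It had 11.1 to 24.9 CPM in atrial RNA (median 18.0) and 13.7 to 31.0 CPM in ventricular RNA (median 20.8), against 19.9 to 38.8 CPM in DNA (median 25.1), and all 3 ranges overlapped. The log2 values were -0.58 ± 0.30 for atrium over DNA (adjusted p = 0.0916), -0.45 ± 0.28 for ventricle over DNA (adjusted p = 0.146) and -0.08 ± 0.37 for atrium over ventricle (adjusted p = 0.904). The last has a 95% interval of -0.86 to 0.70, so differences between chambers within that interval, in either direction, were not excluded. The ventricular value passed without ventricular replicate 2 (-0.65, adjusted p = 0.0423), and the sign between chambers turned without atrial replicate 4 (0.07) or ventricular replicate 2 (0.13). Within libraries, the vMTF+p300 region of Esrrg had 5.04 to 14.8 times the counts of the aMTF-p300 region in atrial RNA, 7.76 to 16.9 times in ventricular RNA and 0.944 to 1.84 times in DNA.

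**Figure D2:**
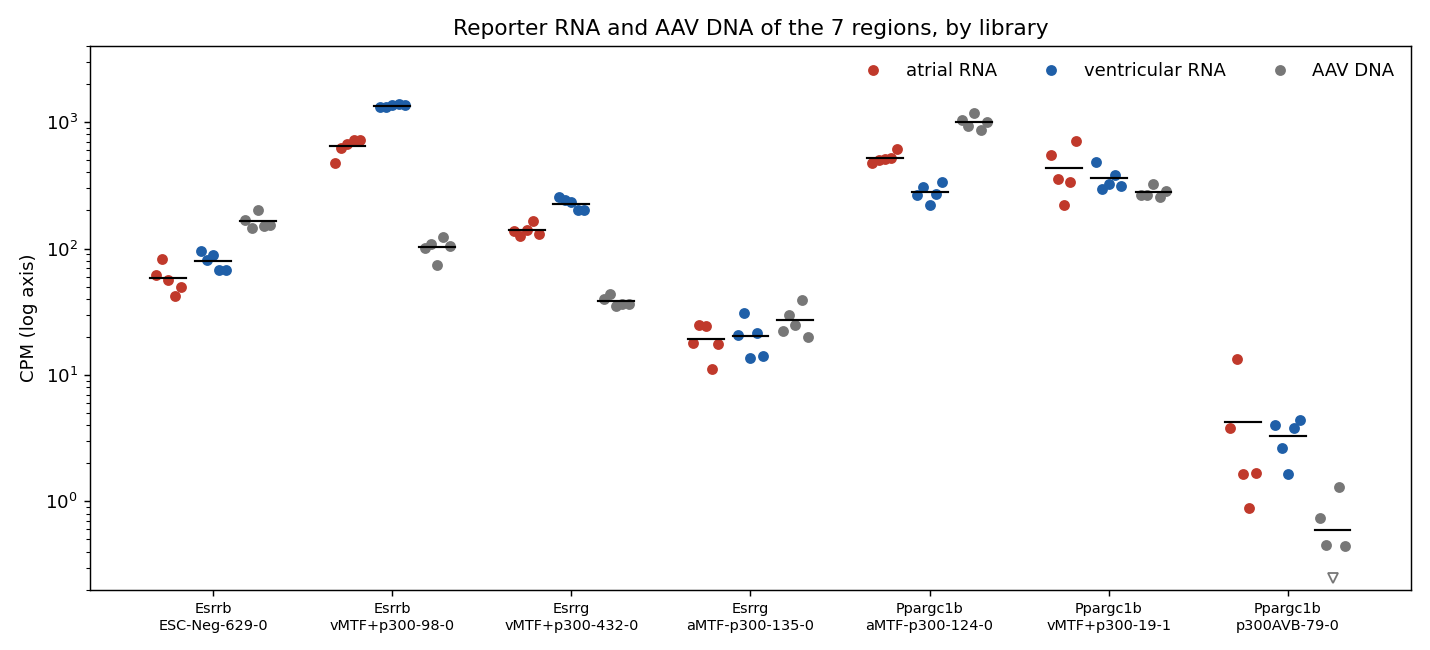
CPM on a log axis of the 7 regions in each of the 15 libraries, with atrial RNA in red, ventricular RNA in blue, AAV DNA in grey, a bar at each group's mean and an open triangle at the lower edge for a library with 0 counts. The vMTF+p300 regions of Esrrb and Esrrg rise above their DNA in both chambers, whereas the aMTF-p300 region of Ppargc1b lies below its DNA, with ventricle lowest.

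Of the 3 Ppargc1b regions, 1 was too scarce to test and 1 other was called between chambers, on the atrial side, as were 15.8% of all tested regions. This aMTF-p300 region, the most abundant of the 7 in the virus, gave less RNA than DNA in both chambers but more in atrium than in ventricle. Atrial RNA was 475, 501, 511, 523 and 610 CPM and ventricular RNA 263, 307, 221, 270.1 and 334 CPM, against 1041, 939, 1172, 861 and 994.5 CPM in DNA. The 3 groups were fully separate, in the order DNA, atrium, ventricle. RNA was 2.0-fold lower than DNA in atrium (log2 -0.996 ± 0.09, adjusted p = 2.22e-07) and 3.60-fold lower in ventricle (log2 -1.85 ± 0.11, adjusted p = 1.15e-10). The direct comparison gave 1.87-fold more RNA in atrium, a log2 value of 0.90 ± 0.12 with an adjusted p of 3.86e-05. Single pairs were higher in atrium by 0.70 to 1.21. That 5 of 5 were higher follows from the separation of the groups. The atrial excess was therefore between values that both lay below the region's share of the pool, on a scale relative to the bulk of regions. With TMM factors taken from the Neg regions alone, the atrial value moved to -0.60 over DNA and the ventricular value to -1.62, and both stayed called.

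The vMTF+p300 region of Ppargc1b had far less contrast. Its atrial libraries spread widely, at 552.5, 356, 221, 336 and 707 CPM, with 480.0, 294, 325, 384 and 314 CPM in ventricle and 267, 265, 321, 256 and 283 CPM in DNA. All 3 groups overlapped. In ventricle it was called above DNA at 1.29-fold (log2 0.36 ± 0.13, adjusted p = 0.0163), although the ventricular and DNA libraries overlapped and the call was lost when no filter on low counts was used (0.19, adjusted p = 0.215). Without ventricular replicate 1, the highest library, the value was 0.22 (adjusted p = 0.0375), and with scaling by totals or on Neg regions it was 0.66 and 0.61. In atrium the log2 value of 0.58 ± 0.26 did not pass (adjusted p = 0.0563), but it passed without atrial replicate 3 (0.76, adjusted p = 0.00396) or replicate 4 (0.67, adjusted p = 0.0443), with either other scaling, with DESeq2 and with a higher minimum of DNA counts. It was 0.34 (adjusted p = 0.171) without atrial replicate 5, 0.46 (adjusted p = 0.112) without replicate 1, 0.45 (adjusted p = 0.153) with no filter and 0.47 (adjusted p = 0.125) with the replicate block. Between chambers the value was 0.27 ± 0.29 (adjusted p = 0.556, 95% interval -0.39 to 0.93), and without atrial replicate 5, the highest library, it was 0.03. As counts within a library, this region had 0.433 to 1.16 times those of the aMTF-p300 region of the same gene in atrial RNA, 0.941 to 1.83 times in ventricular RNA and 0.256 to 0.298 times in DNA.

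The third Ppargc1b region, tagged p300AVB, was too scarce to test. It had 4, 24, 4, 2 and 3 counts in the atrial libraries and 6, 8, 6, 15 and 14 in the ventricular ones, against 2, 1, 0, 3 and 1 in DNA. The DNA library with 0 counts allows up to 1.30 CPM when scaled by its total counts, without TMM factors. Pooled over libraries and scaled by their totals, the ratio to DNA was 7.54 in atrium, with an exact 95% counting interval of 3.32 to 20.1, and 6.13 in ventricle (2.76 to 16.1). Atrial replicate 2 held 24 of the 37 atrial counts, and without it the atrial ratio was 3.29 (1.22 to 9.73). These intervals cover counting error only and leave out the spread between libraries, and scarce regions as a group read high against DNA, as described next.

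Across the whole table, 74.7% of the 2601 regions were called against DNA in atrium and 81.3% in ventricle, so a call against DNA sets few regions apart. Of the 6 tested regions at the 3 loci, 4 were called in atrium (2 above DNA, 2 below) and 5 in ventricle (3 above, 2 below). Regions called above DNA were 38.4% of all in atrium and 41.8% in ventricle, and regions called below were 36.3% in atrium and 39.5% in ventricle. The RNA and DNA libraries did not overlap in 4 of the 6 regions in each chamber, against 60.9% of all regions in atrium and 70.1% in ventricle. The log2 ratio of RNA to DNA also ran lower where DNA was more plentiful. With a mean DNA count below 100 its median was 1.21 in atrium and 1.36 in ventricle. From 100 to below 300 it was 0.20 in atrium and 0.22 in ventricle, and above that -0.66 in atrium and -0.75 in ventricle. The size of a ratio is therefore given against regions with a like amount of DNA. The Esrrb vMTF+p300 region, with a mean of 232 DNA counts, was above 93.0% of the 570 regions of its range in atrium and above 97.7% in ventricle. The Esrrg vMTF+p300 region, with 86.6 DNA counts, was above 61.7% of 854 regions in atrium and 73.8% in ventricle. That range runs from 10 to under 100 counts and the region sits near its upper edge. Its place among regions with a closer amount of DNA was not determined. The Esrrg aMTF-p300 region, with 61.0 DNA counts, was above only 11.2% and 10.4% of that same range in atrium and ventricle. At 2238 DNA counts, the Ppargc1b aMTF-p300 region was above 35.6% of 1177 regions in atrium and 12.3% in ventricle, while the Ppargc1b vMTF+p300 region, at 621, was above 84.5% and 80.3%. The Esrrb ESC-Neg region, at 366, was above 14.3% and 38.5%. Both chambers were set against the same DNA libraries, so their ratios are not independent of each other.

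**Figure D3:**
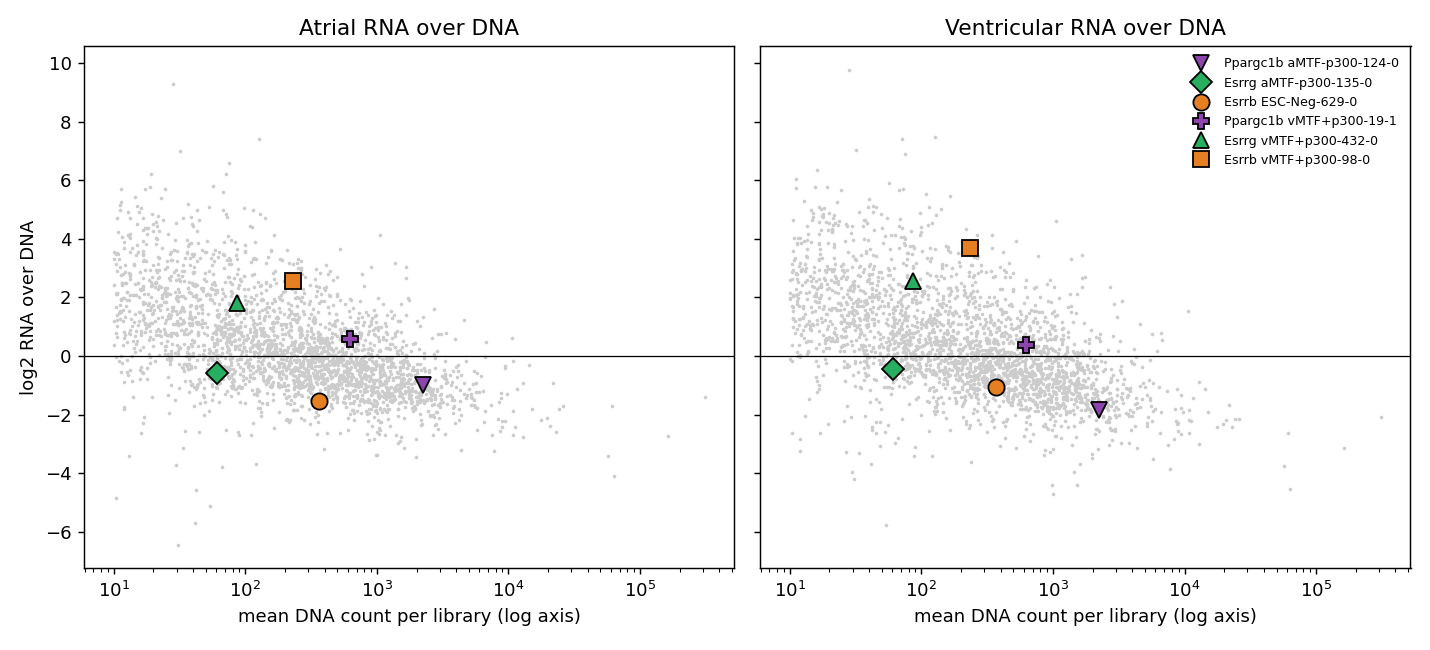
Log2 RNA over DNA against the mean DNA count per library (log axis) in atrium (left) and ventricle (right), with all 2601 tested regions as grey points and the 6 tested regions of the 3 loci as large symbols coloured by gene. The Esrrb vMTF+p300 region lies near the top of the regions with a like amount of DNA, the Esrrg aMTF-p300 region near the bottom.

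Between chambers, 3 of the 6 tested regions were called, against 30.9% of all 2601. The calls were 1 region higher in atrium (Ppargc1b aMTF-p300), against 15.8% of all regions, and 2 higher in ventricle (the vMTF+p300 regions of Esrrb and Esrrg), against 15.2%. The libraries of the chambers did not overlap in these 3 regions, as in 22.7% of all. The median log2 value of the 6 was -0.27, beside 0.02 for all regions. With 6 regions these shares are a description only. In size, the Esrrb region was the 81st most ventricular of the 2601 and the Esrrg region the 244th, and the Ppargc1b region was the 195th most atrial. All 3 calls held in each of the 10 fits that left out a library, in replicates 2 to 5 alone and with a term for replicate 1.

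Chamber calls were also read within the tag classes. Of the 349 tested regions tagged vMTF+p300 alone, 106 were called higher in ventricle (30.4%) and 40 higher in atrium (11.5%), with a median log2 value of -0.16. The Esrrb region was the 20th most ventricular of this class and the Esrrg region the 60th. The Ppargc1b vMTF+p300 region, at 0.27, was on the atrial side of 78.5% of the class but was itself not called. Of the 137 tested regions tagged aMTF-p300 alone, 22 were called higher in atrium and 15 higher in ventricle, with a median of 0.09, and the Ppargc1b region was the 9th most atrial. Among the 55 of this class with 300 or more DNA counts, the median over DNA was -0.41 in atrium and -0.66 in ventricle, beside -0.996 in atrium and -1.85 in ventricle for the Ppargc1b region. Medians matched by class and DNA range follow for the rest, atrium then ventricle, with the region's own values in brackets. For vMTF+p300 they were 0.95 and 1.13 at Esrrb (2.57 and 3.70) and 1.67 and 1.83 at Esrrg (1.79 and 2.54). At Ppargc1b they were -0.20 and 0.06 (0.58 and 0.36). For the Esrrg aMTF-p300 region they were 1.56 and 1.36 (-0.58 and -0.45), for the ESC-Neg region -0.95 and -0.87 (-1.55 and -1.04). No test of the 3 loci against their classes was made.

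**Figure D4:**
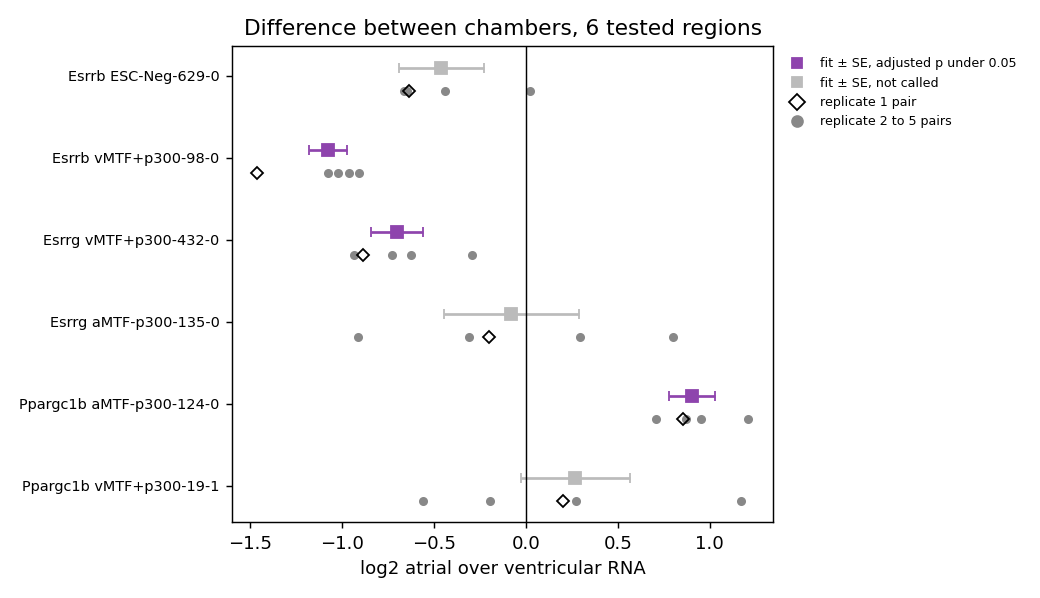
Log2 difference of atrial over ventricular RNA for the 6 tested regions, with squares for the fit and its SE (purple where called), an open diamond for the replicate 1 pair and grey points for the pairs of replicates 2 to 5. All 5 pairs lie below 0 for the vMTF+p300 regions of Esrrb and Esrrg and above 0 for the aMTF-p300 region of Ppargc1b, whereas pairs fall on both sides of 0 for the other 3. In the called regions the chambers do not overlap, which fixes the side of each pair.

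Other genes of the pathway were read from lists of its coactivators, cofactors, partner receptors and targets, with the 3 loci left out. The counts of these lists stand beside the shares of all 2601 regions, which were 15.8% called higher in atrium and 15.2% higher in ventricle, 38.4% above and 36.3% below DNA in atrium, and 41.8% above and 39.5% below DNA in ventricle. The third receptor gene of the family, Esrra, had no region in the table used here. In the PGC-1 family, a vMTF-p300 region inside Ppargc1a, the gene of PGC-1 alpha (chr5:51591403-51591802), had 153 ± 55.6 CPM in atrium and 183 ± 36.7 in ventricle, against 106 ± 5.50 in DNA (SD, n = 5). It was called above DNA in ventricle (log2 0.77 ± 0.14, adjusted p = 0.000105) but not in atrium (0.46 ± 0.20, adjusted p = 0.0533), and the chambers did not pass the test (-0.26 ± 0.22, adjusted p = 0.422). A region inside Pprc1, a PGC-1-related coactivator, was lower than DNA in both chambers (-0.44 and -0.90) and higher in atrium than in ventricle (0.51 ± 0.16, adjusted p = 0.0248). It carries the ESC-Neg tag, which the rule for named regions leaves out, and was named after its values were seen.

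Among cofactors, 4 regions lay near list genes and 2 were tested, of which 1 was above DNA in atrium and 2 in ventricle, where the shares of all regions are 38.4% and 41.8%. A p300AVB region inside Ncoa2, a coactivator of nuclear receptors (chr1:13329635-13330034), had 97.6 ± 11.9 CPM in atrium and 211 ± 19.5 in ventricle, against 75.6 ± 6.76 in DNA. It was higher in ventricle by a log2 difference of -1.12 ± 0.15 (adjusted p = 3.17e-05), close in size to the Esrrb region. A region 1465 bp from Crebbp, a histone acetyltransferase related to p300, was not called between chambers (-1.39 ± 0.59, adjusted p = 0.107). Of 8 tested regions near partner receptors and mitochondrial factors, 1 was higher in atrium and 1 in ventricle (median log2 0.40, beside 0.02 for all regions). Against DNA, 3 of the 8 were higher and 2 lower in atrium, and 2 higher and 3 lower in ventricle. The ventricular call was 43358 bp from Nr2f2, the gene of the orphan receptor COUP-TFII (chr7:70409905-70410304), at 701 ± 39.5 CPM in atrium and 1196 ± 72.8 in ventricle (-0.78 ± 0.08, adjusted p = 1.36e-06). The atrial call was an ESC-Neg region inside Ppard, a fatty acid-sensing receptor, at 0.34 ± 0.08 (adjusted p = 0.00541), again named after its values were seen.

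Of 11 tested regions near target genes of energy metabolism, 1 was called higher in atrium and 1 higher in ventricle, and 9 were not called (median log2 0.17), where 30.9% of all regions were called. A region inside Mb, the myoglobin gene (chr15:77027674-77028073), had 242 ± 119 CPM in atrium and 104 ± 25.2 in ventricle (1.22 ± 0.29, adjusted p = 0.00494), with overlapping libraries. A vMTF+p300 region inside Lpl, lipoprotein lipase (chr8:68902817-68903216), had 100.4 ± 27.5 CPM in atrium and 155 ± 35.0 in ventricle (-0.63 ± 0.21, adjusted p = 0.0340), also with overlap. Against DNA, 4 of the 11 were higher and 3 lower in atrium, and 6 higher and 5 lower in ventricle. For target genes of contraction and conduction, 24 regions were tested, with 4 higher in atrium and 7 higher in ventricle (median log2 0.13), beside 15.8% and 15.2% of all regions. Against DNA, 10 were higher and 10 lower in atrium, and 11 higher and 10 lower in ventricle. The 3 with the smallest p were near Myh7 (-1.51 ± 0.12) on the ventricular side and near Nppb (0.89 ± 0.08) and Kcnj5 (1.24 ± 0.11) on the atrial side, with adjusted p-values of 1.99e-07, 5.49e-07 and 7.23e-07. Both the Nppb and the Kcnj5 region were lower than DNA in each chamber, as the Ppargc1b aMTF-p300 region was.

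Likeness was measured for the Esrrb vMTF+p300 region as Pearson's r of log2(CPM + 1) over the 10 RNA libraries, which share depth and the split of replicate 1. The 3 closest regions were a vMTF+p300 region on chromosome 18 that was assigned to no gene (chr18:55134094-55134493, r = 0.993), a vMTF+p300 region inside Insr, the insulin receptor gene (chr8:3187531-3187930, r = 0.992), and a region tagged ESC_Neg assigned to Schip1 (chr3:68534770-68535169, r = 0.991). Their log2 atrial over ventricular values were -0.90, -1.02 and -0.87. These regions were picked over the same libraries, so values on the ventricular side follow from the choice. Of the 2601 tested regions, 127 others had an r over 0.9 with the Esrrb region.

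Just outside the choice of regions, the nearest region to Ppargc1b lay 46.9 kb from its gene body and was assigned to Arhgef37, tagged vMTF+p300 (chr18:61447413-61447812). It had a mean of 556 CPM in atrium and 1229.7 CPM in ventricle, against 53.2 CPM in DNA. Unlike the called Ppargc1b region, it was called higher in ventricle (log2 atrial over ventricular RNA -1.15, adjusted p = 1.99e-07). The nearest other region to Esrrb was 202 kb away, assigned to Ift43, with 143 CPM in atrium, 218 in ventricle and 198 in DNA. It was also called higher in ventricle (-0.61, adjusted p = 0.00701). The nearest to Esrrg was 945 kb away, assigned to Tgfb2, with 43.9, 33.7 and 5.84 CPM in atrium, ventricle and DNA. Its chambers did not pass the test (0.37, adjusted p = 0.568).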

How the data were processed

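The authors deposited raw counts, whole numbers for each region and library; per the submitters' processing notes cutadapt 2.5, Bowtie2 2.3.4.3 and build mm10 were used. Per the labels' protocols a UMI primer was used; whether reads or molecules were counted is not stated there. The series table and the files per library differed in 0 values, and the authors' deposited group column, with a text label per region and no score, was used as given. Coordinates are written from 1. Start sites were read from the RefSeq promoter table, which lists none for Ppargc1b here. Motif searches planned on the regions were not run, since no genome sequence was used here.

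Each comparison (atrium over DNA, ventricle over DNA, atrium over ventricle) was fitted on its 5 and 5 libraries with edgeR 4.0.16 in R 4.3.3 (robust quasi-likelihood, TMM); standard errors come from the log2 fold change and F, and intervals from the t distribution. Values within replicate pairs are log2(CPM + 0.5). The fits were tested on simulated data with the same spread for each region, independent libraries and no shift in replicate 1. That test does not give error rates for these data. No replicate pair agreed within sampling noise (lowest chi-square per degree of freedom 17.7 in atrium, 12.7 in ventricle, 1.79 in DNA). For atrial and ventricular libraries of the same replicate number, the r of deviations was 0.819 in replicate 1 and 0.228 to 0.244 in replicates 2 to 5. Each was above the 0.1 required, so the numbers were taken as pairs. The deviations were from means that include replicate 1, which stood apart in both chambers, and libraries of unlike number were not compared. These values therefore do not show that replicates 2 to 5 are paired. Each of the 7 regions is described. For the lists, up to 3 regions per list with the smallest p between chambers among those called were named, ESC-Neg tags left out. The regions of Ppargc1a, Pprc1, Crebbp and Ppard were named outside this rule. Members and lists were chosen with earlier results of these data known. Alternatives were other scalings, filters and libraries, DESeq2 1.42.0 and a replicate block. Against DNA the block matched RNA and DNA libraries by number alone, and a tie between them was not checked.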

Additional observations from a re-analysis of the deposited data

Results flagged for a closer look

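Of 21 groups of 5 libraries checked (7 regions in 3 groups), 1 held a library far from the others, where chance alone gives about 1 in 20: the p300AVB region of Ppargc1b had 13.3 CPM in atrial replicate 2, against 0.888 to 3.797 CPM in the other 4 atrial libraries. That region was outside the tests for its low DNA counts, and its pooled RNA was above DNA at a ratio of 7.54 in atrium, 3.29 in atrium without replicate 2 and 6.13 in ventricle. The chambers differed by the test between them at 3 regions, with log2 atrial over ventricular values of -1.07 at the vMTF+p300 region of Esrrb, -0.70 at that of Esrrg and 0.90 at the aMTF-p300 region of Ppargc1b.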

How the results depend on the processing

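The 3 called differences between chambers kept direction and call under each alternative that could be run: -1.11 to -0.91 for the Esrrb vMTF+p300 region, -0.76 to -0.53 for that of Esrrg and 0.83 to 1.07 for the Ppargc1b aMTF-p300 region. The Esrrg regions have under 100 DNA counts and gave no value at that minimum. The uncalled difference at the Esrrg aMTF-p300 region turned to 0.0826 with scaling on Neg regions and ran from -0.19 to 0.13 when single libraries were left out. Calls for atrium over DNA were 1944, against 2952 without a filter, where more regions were tested, and 1280 at a minimum of 100 DNA counts, where fewer were. Leaving out single libraries gave 1838 to 1974 calls in atrium over DNA, 2027 to 2140 in ventricle over DNA and 667 to 805 between chambers, with 4 to 5, 5 to 6 and 3 calls among the 6 regions. Scaling by library totals and on Neg regions shifted the median region by 0.33 and 0.40 in atrium over DNA and by 0.28 and 0.23 in ventricle over DNA. The split of calls in atrium over DNA was 999 higher and 945 lower, 1189 and 676 with totals, and 1264 and 644 with Neg regions. Between chambers 410 regions were called to the atrial side and 395 to the ventricular side, and 578 and 226 with Neg regions, a shift of 0.17. With the replicate block there were 872 calls between chambers, 1886 in atrium over DNA and 2062 in ventricle over DNA, and the block changed no call of the 6 regions. A limit of 50 kb kept 7 regions. Depth limited the p300AVB region, whose DNA libraries averaged 1.4 counts.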
